A study of Zea mays with 4 samples.

Results

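The protein disulfide isomerase (PDI) family of maize was followed in developing kernels of the brittle2 mutant. Members were chosen by name: all probe sets of genes whose symbol or synonym begins with PDI or PDIL and a number, or is PDI alone, and of these the 10 genes with the highest mean over the arrays. The rule found 11 genes on 17 probe sets and kept 10 genes on 16 probe sets, out of 1108 named or numbered genes and 17554 maize probe sets on the array. Each gene was ranked by its probe set with the highest mean. PDIL1-4, the last gene kept, had a mean log2 value of 6.61, and PDIL1-5, the gene left out, 6.08. Averaged over all its probe sets PDIL1-4 had a mean of 5.10, which would have exchanged these genes. The family was proposed with the mutant and wild-type values of these arrays known. The differences of its members are therefore a description, and no p-value of a member is printed. Whether members passed the limma test described below is given only to be read against the share over all genes.

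RNA came from kernels of Zea mays taken 35 days after pollination from untreated greenhouse plants, 2 samples of the bt2 mutant carrying the bt2-H2328 allele and 2 of the wild type, each on its own 1-colour Affymetrix maize array. Bt2 is the endosperm gene for the small subunit of ADP-glucose pyrophosphorylase, an early enzyme of starch synthesis, and kernels that lack it make little starch and build up sucrose. The labels give neither the genetic background of the wild type nor whether samples came from separate plants, so the spread between samples may be technical. The question behind the comparison was which other pathways respond in transcript level when starch synthesis is blocked. Expression was summarised by GCRMA as log2 values, so that 1 unit is a doubling, and the number of arrays limits their precision.

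PDI enzymes work in the endoplasmic reticulum (ER), where secreted and stored proteins fold. They carry thioredoxin-like domains with a pair of cysteines that form, break and rearrange disulfide bonds in client proteins, and several also act as chaperones. Cereal endosperm makes large amounts of storage protein in the ER, and maize zeins are packed there into protein bodies, some of them held together by disulfide bonds. The plant family is numbered by subfamily. PDIL1 proteins have the classical layout, with active domains at both ends of the protein, PDIL2 proteins have active domains in tandem, and PDIL5 proteins have a single active domain, some of them anchored in the membrane.

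The mutated gene and the samples were checked first. bt2 read 10.13 and 10.12 in the mutants, against 12.67 and 12.64 in the wild types. Across probe sets, the replicates correlated at r = 0.980 (mutant) and 0.986 (wild type), while mutant against wild-type arrays gave 0.864 to 0.910. Markers of endosperm and of embryo were both present. The counts of rises and falls that follow are to be read against all 781 genes, 1 probe set a gene. Of these limma called 20.9% higher and 29.4% lower. Of 9 listed endosperm markers 6 were measured, none rose and 5 fell in the limma test described below, and their summed linear level was 20824 and 21152 in the mutants, against 40951 to 41135 in the wild types. Of 8 embryo markers 6 were measured and 3 rose on the deposited scale, at a sum of 112127 to 117197 in the mutants, against 89613 to 97547 in the wild types. Of 8 transfer cell markers 5 were measured and 4 fell, at a sum of 72.0 to 107 in the mutants, against 523 to 889 in the wild types. In both mutants meg2, betl3 and BET1 lay under a log2 value of 4. They passed the filter described below only through the wild types, so no call but a fall was possible. Of 5 aleurone markers 4 were measured, 1 rose and 1 fell, at 1825 to 1849 in the mutants, against 1867 to 1926 in the wild types. Of 4 markers of pericarp and maternal tissue 3 were measured and 2 fell, at 390 to 532 in the mutants, against 968 to 975 in the wild types. The listed markers betl2, cr4 and p1 lay under a log2 value of 4 on every array. In kernel RNA, fewer cells of a type and less RNA per cell cannot be told apart, and the part of such shifts in the results on the PDI family was not tested.

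A further shift concerns the scale itself. The poly-A controls, bacterial RNAs added before labelling, had array medians of 7.46 and 7.18 in the mutants, against 6.15 and 6.02 in the wild types. When the arrays were centred on these medians, every difference moved by -1.23, and the median of all kept probe sets went to -1.25, against -0.01 on the deposited scale. Differences below are on the deposited scale, mutant minus wild type, and signs that turn on the other scale are named. Of the markers above, those of the embryo turned: on the poly-A scale all 6 fell. The aleurone marker Sal1 turned too, from 0.35 to -0.88. The aleurone marker that rose, dek1, kept its sign at 0.405 on the poly-A scale but did not pass. Of the 10 PDI genes 9 fell and none rose there, where limma called 79.8% of all genes lower and 4.23% higher and no PDI gene had an unadjusted p under 0.05 for a rise, so that count is near the background.

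Across all 10457 probe sets that passed a filter on dim values, limma called 4514 at an adjusted p of 0.05, or 43.2%. One probe set per gene gave 781 genes, of which 50.3% were called, 20.9% higher and 29.4% lower in the mutant. Of the 10 PDI genes 1 rose, 5 fell and 4 did not pass, which as shares of the family are to be read against these percentages. The family's median difference was -0.48, against -0.18 over the 781 genes. Without mutant 1, mutant 2 or wild type 2, no PDI gene passed in limma after adjustment, although in the direction of the falls 5, 4 and 3 genes had an unadjusted p under 0.05, and in that of the rise 1 each time. Without wild type 1, PDIL2-1 rose and PDIL1-1 and PDIL2-3 fell. Mutant and wild-type arrays did not overlap in 9 of the 10 genes, 2 of them higher and 7 lower in the mutant, where 79.6% of all genes did not overlap, 32.1% higher and 47.5% lower. That share of separate genes is near the background and says little about the family.

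**Figure D1:**
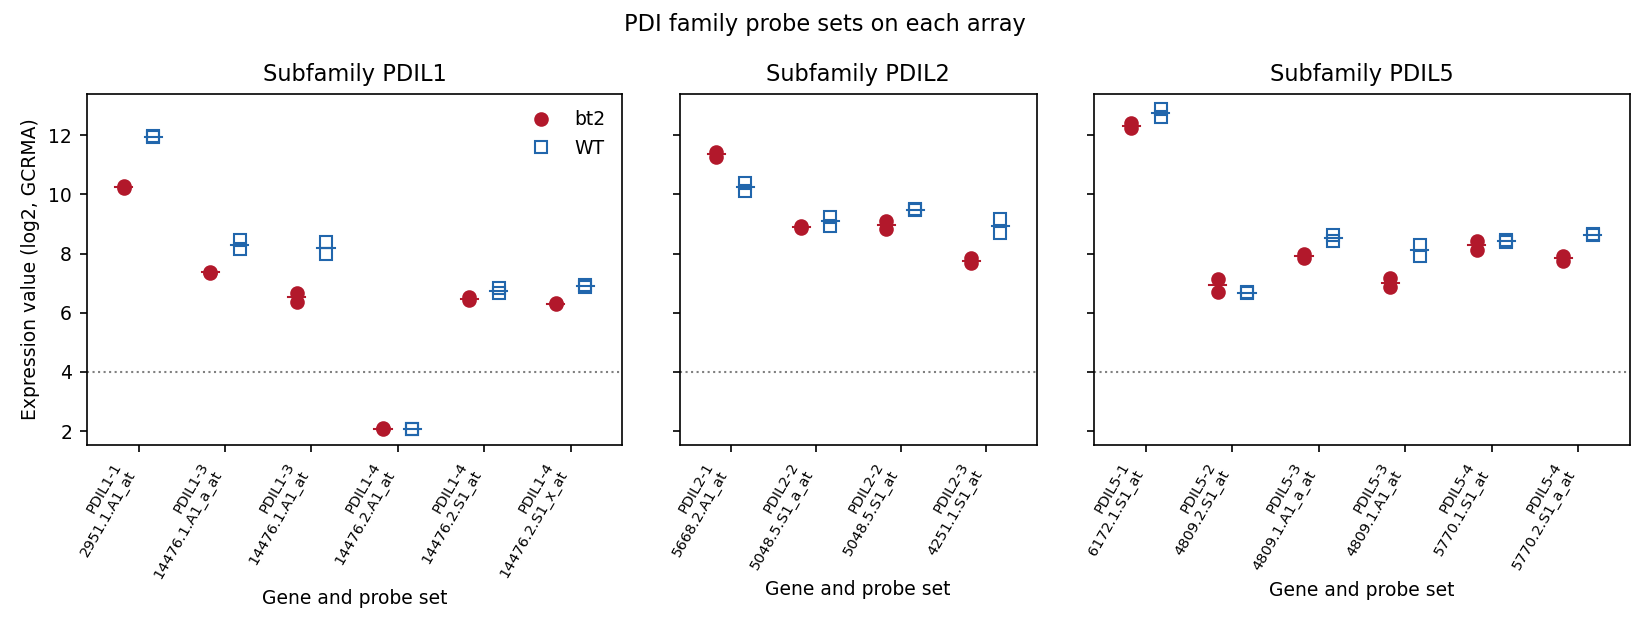
Log2 expression values (vertical axis) of the 16 PDI family probe sets by subfamily; filled circles are the 2 mutant arrays, open squares the 2 wild-type arrays, short lines the group means, and the dotted line the log2 value of 4 used in the filter. PDIL2-1 lies higher in both mutants, PDIL1-1 lower in both, and 1 probe set of PDIL1-4 lies near 2 on all arrays.

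The classical subfamily PDIL1, with 2 of 3 genes falling, lay lower in the mutant in every kept probe set. Among all genes limma called 29.4% lower, and 47.5% lay lower without overlap. A subfamily of 3 genes is too small to set against these shares. PDIL1-1 (LOC606409) is the classical PDI, and its loss in rice disturbs the maturation of the storage protein proglutelin. It read 10.21 and 10.30 in the mutants, against 11.94 and 11.96 in the wild types. The groups were 1.64 apart, the widest gap in the family, while replicates differed by at most 0.09. The difference was -1.70 (SE 0.10, n = 2 per group), a 3.24-fold fall, and 5.54% of all kept probe sets had a more negative one.

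PDIL1-3 (LOC606411) has the classical layout too and fell in both of its probe sets. The brighter one, whose name ends in a_at, read 7.34 and 7.39 in the mutants, against 8.14 and 8.46 in the wild types, which is a difference of -0.94 (SE 0.17). The other read 6.38 and 6.68 in the mutants, against 7.98 and 8.39 in the wild types, which is a difference of -1.66 (SE 0.22). Both put the mutants below the wild types without overlap, but the sizes differ by 0.72 on the log2 scale, so the fall is between 1.91-fold and 3.15-fold depending on the probe set.

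PDIL1-4 (LOC606412) gave a less clear picture over 3 probe sets. The brightest read 6.53 and 6.42 in the mutants, against 6.66 and 6.83 in the wild types, which is a difference of -0.27 (SE 0.16) that did not pass. Another, whose name ends in x_at, read 6.33 and 6.29 in the mutants, against 6.88 and 6.93 in the wild types, and fell by 0.60 (SE 0.14). This call ended with quantile normalization, at -0.49, and with the replicate block described at the end. The x_at ending marks a probe set in which some probes may also bind other transcripts. The probe sets of PDIL1-3 and PDIL1-4 share a cluster number in their names, and a reading of both genes by 1 probe set was not tested. The remaining probe set of PDIL1-4 read 2.07 to 2.09 on all arrays and did not pass the filter. PDIL1-5 (LOC606418), just outside the 10 genes, read 5.82 and 5.80 in the mutants, against 6.09 and 6.61 in the wild types, lower without overlap at -0.54 (SE 0.23) and not past the threshold.

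In subfamily PDIL2, 1 gene rose and 2 fell, against 20.9% higher and 29.4% lower among all genes. PDIL2-1 (LOC606413), whose Arabidopsis relative acts in pollen tube guidance to the ovule, read 11.28 and 11.43 in the mutants, against 10.39 and 10.13 in the wild types. Both mutants lay above both wild types by at least 0.89, and the difference was 1.10 (SE 0.14, n = 2 per group), a 2.14-fold rise on the deposited scale. Of all kept probe sets 89.9% had a lower difference. Centred on the poly-A controls the value was -0.14 and not past the threshold, so whether its absolute level rose depends on the scaling.

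PDIL2-3 (LOC606479) corresponds to the enzyme that in rice sits at the surface of prolamin protein bodies. It read 7.69 and 7.84 in the mutants, against 8.71 and 9.17 in the wild types. These groups did not overlap, and the gene fell by 1.18 (SE 0.20), or 2.26-fold, although the wild types were 0.46 apart, the widest spread between replicates of any member probe set.

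PDIL2-2 (LOC606414) shares the tandem layout and was measured by 2 probe sets. The brighter read 8.83 and 9.10 in the mutants, against 9.46 and 9.52 in the wild types, and fell by 0.53 (SE 0.14). This call ended without the filter on dim probe sets and without the mean-variance trend. The other read 8.92 and 8.86 in the mutants, against 9.24 and 8.93 in the wild types, which is a difference of -0.20 (SE 0.15) that did not pass, with only 0.01 between the groups and a range of -0.35 to -0.04 with each array left out in turn.

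**Figure D2:**
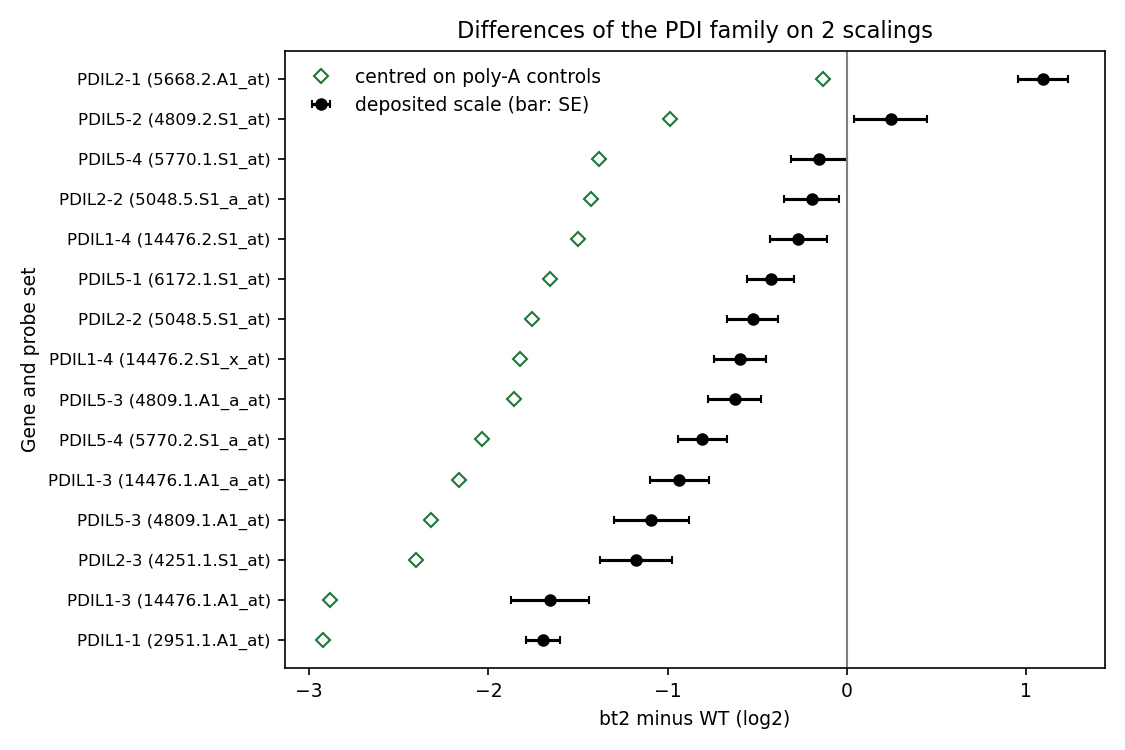
Mutant minus wild-type differences on the log2 scale (horizontal axis) of the 15 kept PDI family probe sets; filled circles with SE bars are on the deposited scale and open diamonds are centred on the poly-A controls. On the deposited scale the values run from -1.70 for PDIL1-1 to 1.10 for PDIL2-1, and on the other scale all 15 lie below 0.

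Subfamily PDIL5 had 1 falling gene among 4, against 29.4% lower among all genes, and the others did not pass. Its differences ran from -0.63 to 0.25 by the probe set that stands for each gene. PDIL5-1 (LOC606415) is a small protein with one thioredoxin domain, whose barley relative is a host factor for bymoviruses. It read 12.41 and 12.24 in the mutants, against 12.63 and 12.87 in the wild types. The mutants lay below the wild types by at least 0.22, and the difference of -0.43 (SE 0.13), 1.34-fold, did not pass. With the filter set at a log2 value of 6 it passed.

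PDIL5-3 (LOC606478) fell in both probe sets. The brighter read 7.97 and 7.84 in the mutants, against 8.42 and 8.64 in the wild types, which is a difference of -0.63 (SE 0.15). The dimmer read 6.87 and 7.16 in the mutants, against 7.91 and 8.30 in the wild types, which is a difference of -1.09 (SE 0.21). Neither probe set showed an overlap between the groups. RefSeq gives the name PDIL5-3 to a second gene as well, so the locus number, not the name, identifies the gene measured here.

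PDIL5-2 (LOC606416) read 7.15 and 6.71 in the mutants, against 6.70 and 6.67 in the wild types. Mutant 1 lay well above the wild types and mutant 2 only 0.01 above the higher of them, and the difference of 0.25 (SE 0.20) did not pass. With each array left out in turn it ran from 0.03 to 0.47. Centred on the poly-A controls its value was -0.99. Its probe set shares a cluster number with those of PDIL5-3, whose differences have the opposite sign on the deposited scale.

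PDIL5-4 (LOC606417) was read differently by its probe sets. The brighter read 8.43 and 8.13 in the mutants, against 8.47 and 8.40 in the wild types, the one case of overlap in the family. The difference of -0.16 (SE 0.16) did not pass and ran from -0.31 to -0.01 with each array left out in turn. The other, whose name ends in a_at, read 7.93 and 7.74 in the mutants, against 8.65 and 8.63 in the wild types, and fell by 0.81 (SE 0.14). This ending marks probes shared by several transcripts of 1 gene. Which transcripts of PDIL5-4 each probe set reads was not analysed here.

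Over all probe sets, 15 of 16 passed the filter, and of these 1 rose, 9 fell and 5 did not pass, against 21.0% higher and 22.1% lower among all kept probe sets. Of the 5 genes with more than 1 kept probe set, all had the same sign in each of theirs, while PDIL1-4, PDIL2-2 and PDIL5-4 passed the threshold in 1 probe set and not in the other. Taking for each gene the probe set with the smallest spread between replicates in place of the brightest gave 7 falls and 1 rise. This choice favours small SEs and so more calls, and no share over all genes under it is given here. Within the family, differences ran in order from PDIL2-1 at the top through PDIL5-2, PDIL5-4, PDIL1-4, PDIL5-1, PDIL2-2, PDIL5-3, PDIL1-3 and PDIL2-3 to PDIL1-1 at the bottom. For each of the 9 neighbouring pairs in this order, the value of one gene minus the other was taken within each array. A constant shift of a whole array, as on the poly-A scale, leaves this measure unchanged, while quantile normalization can change it. In 3 pairs the mutant and wild-type arrays overlapped in this measure: PDIL5-4 with PDIL1-4, PDIL5-1 with PDIL2-2, and PDIL2-2 with PDIL5-3. The order among PDIL5-4, PDIL1-4, PDIL5-1, PDIL2-2 and PDIL5-3 is thus partly within the spread between replicates. It also rests on the brightest probe set of each gene. The other kept probe sets gave -0.20 for PDIL2-2, -0.60 for PDIL1-4, -0.81 for PDIL5-4, -1.09 for PDIL5-3 and -1.66 for PDIL1-3. With these the order would change, including the places of PDIL1-3 and PDIL2-3.

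The same measure, which a constant shift of an array does not change, was taken for PDIL2-1 against each other member. PDIL2-1 has the highest difference of the family, so a higher mean in the mutants was fixed in advance. PDIL1-1 has the lowest, so the change relative to it is by this choice the largest of any pair in the family. Mutant and wild-type arrays overlapped in none of these comparisons, but this was not set against pairs of other genes. PDIL2-1 minus PDIL1-1 was 1.07 and 1.13 in the mutants, against -1.55 and -1.83 in the wild types. Only the change of this value between groups has a meaning, since probe sets differ in brightness, and the change was 2.79, a 6.92-fold shift in their ratio. Relative to PDIL2-3 of the same subfamily, PDIL2-1 read 3.59 and 3.59 in the mutants, against 1.68 and 0.96 in the wild types, a change of 2.27 or 4.82-fold. The smallest change was relative to PDIL5-2, with 4.13 and 4.72 in the mutants, against 3.69 and 3.46 in the wild types, a change of 0.85. These ratios show unequal change between the genes and not which of them changed.

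**Figure D3:**
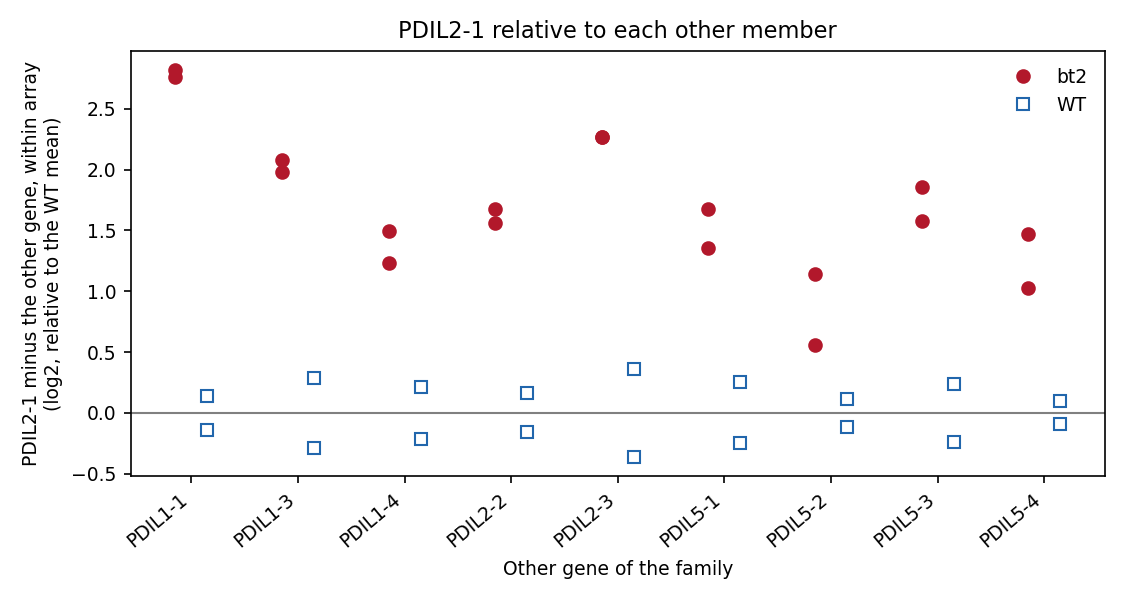
PDIL2-1 minus each other PDI gene within the same array (vertical axis, log2, with the wild-type mean set to 0); filled circles are the 2 mutant arrays and open squares the 2 wild-type arrays. In all 9 comparisons both mutants lie above both wild types, from a mean change of 0.85 relative to PDIL5-2 to 2.79 relative to PDIL1-1. The direction follows from PDIL2-1 having the highest difference of the family.

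Other genes of protein folding in the ER came from a list of chaperone, calreticulin, calnexin and ER quality control symbols, of which 7 genes were measured. This list, like the family, was written with earlier results of these arrays known, so its values are a description too. None rose, 4 fell and 3 did not pass, against 20.9% higher and 29.4% lower among all genes, and none had an unadjusted p under 0.05 for a rise in the limma test. The list median was -1.29, against -0.48 for the PDI family and -0.18 over all genes. Without mutant 1, mutant 2 or wild type 2 none of the 7 passed, and 2 did without wild type 1.

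The falls were in the chaperones that bind unfolded chains. bip1, an ER HSP70 chaperone, read 9.62 and 10.13 in the mutants, against 11.77 and 12.03 in the wild types, which is a difference of -2.03 (SE 0.21). Both mutants lay below both wild types for bip1, and likewise for bip2, at -1.29, and for crt2, a calreticulin, at -1.53. CNX, a calnexin that holds glycoproteins during folding, read 9.56 and 9.82 in the mutants, against 11.31 and 11.45 in the wild types, which is a difference of -1.69 (SE 0.14). By these probe sets the differences of PDIL1-1 and CNX were nearly equal, while the other kept probe sets of CNX gave -2.38 and -2.16.

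The 3 genes that did not pass were all derlins, membrane proteins that help return misfolded proteins from the ER for degradation. derlin1 read 10.20 and 10.16 in the mutants, against 10.29 and 10.22 in the wild types, which is a difference of -0.08 (SE 0.10). derlin2 was at -0.27 and derlin4 at 0.11, with overlap between the groups in derlin4. On the poly-A scale all 3 were below 0, between -1.50 and -1.13.

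Zeins, client proteins of ER folding, were taken as 8 genes, of which 7 passed the filter, 5 fell and 2 did not pass, against 29.4% lower among all genes; FL2 and zp27 are also among the endosperm markers. The alpha zein genes z1D_2, FL2, z1C1_20, z1C1_4 and z1C1_12 differed by -4.93 to -1.24. The gamma zeins, which are rich in cysteine and linked by disulfide bonds, had values nearer 0: gz50 averaged 14.88 in the mutants, against 15.02 in the wild types, and zp27 read 13.43 and 13.64 in the mutants, against 13.88 and 13.84 in the wild types. The groups overlapped for gz50 at -0.14 and did not for zp27 at -0.33, and neither passed, while another probe set of zp27 fell by 0.38. Zein genes are close copies of each other, so 1 probe set may pick up more than 1 gene, and the difference between alpha and gamma zeins was not tested. gz50 read up to 15.03, where the highest value on any array was 15.44, and how far so bright a probe set can still register a difference was not tested.

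**Figure D4:**
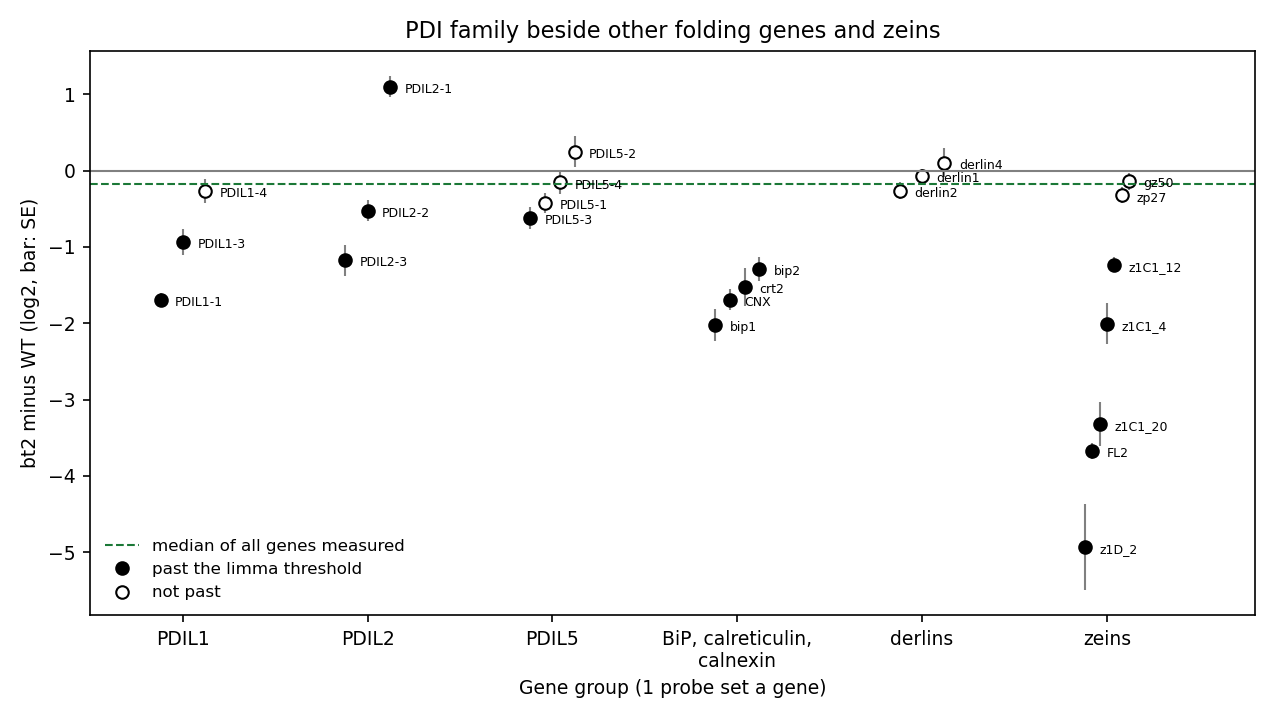
Mutant minus wild-type differences (vertical axis, log2, with SE bars) of the PDI genes by subfamily, of the other ER folding genes and of zeins, 1 probe set a gene; filled points passed the limma threshold, open points did not, and the dashed line is the median of all genes, -0.18. The chaperones lie between -2.03 and -1.29, the derlins near 0, and the PDI genes between -1.70 and 1.10.

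The genes with the pattern most like PDIL1-1 and PDIL2-1 were sought among 682 named genes outside the family, by the root mean square distance between values centred on each gene's mean over the 4 arrays. Nearest to PDIL1-1 were the alpha tubulin gene TUA1, at a distance of 0.07 on the log2 scale, the calnexin gene CNX at 0.07 and the glutathione S-transferase gene gst41 at 0.09. TUA1 read 8.32 and 8.57 in the mutants, against 10.08 and 10.07 in the wild types. Nearest to PDIL2-1 on the deposited scale were SE1A at 0.03, the anthocyanin synthesis gene a2 at 0.06 and the histone deacetylase gene hda101 at 0.07. SE1A read 8.55 and 8.76 in the mutants, against 7.63 and 7.43 in the wild types. Like PDIL2-1, these 3 genes lay just below 0 on the poly-A scale, with SE1A at -0.11, a2 at -0.04 and hda101 at -0.07. This follows from their choice, since that scale moves every difference by -1.23. With 4 arrays in 2 groups, nearness in this measure means mainly a difference of the same size.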

How the data were processed

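The authors deposited 1 log2 value for each probe set and array, computed by GCRMA, per the submitters' processing notes. GCRMA corrects background by probe sequence, normalizes arrays and summarises probes. The sources used here give neither its version nor whether the arrays were normalized together. Per the labels' protocols 20 µg of RNA was used, 17 µg for mutant 2, amplified and labelled with biotin.

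Of 17734 probe sets, 113 controls, 66 reporter probe sets and 1 without values were left out. Platform annotation gave 1 gene for 1452 probe sets, several for 1 and none for 16101. Entrez identifiers matched RefSeq (Zm-B73-REFERENCE-NAM-5.0) for 1060 of 1108 genes and all 10 members. The RefSeq table carries the family's names on 13 genes, and those without a probe set are not analysed here. Coordinates were left out because no build is named in the files.

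Probe sets with a log2 value of 4 or more on at least 2 arrays were kept, 10457 in all. The comparison of mutant with wild type used limma 3.58.1 (R 4.3.3; lmFit, eBayes with trend, two-sided, Benjamini-Hochberg over all kept probe sets, threshold 0.05). SE is moderated. The fit was tested on simulated data with the same spread for every probe set and a small set of probe sets raised. These settings differ from the data, so the test does not show how the calls here perform. The members and all lists, including the ER folding, zein and cell type lists, were chosen with earlier results of these data known. All family members are named; the genes of similar pattern are the 3 nearest. Listed symbols that belong to another kind of gene were left out, among them calmodulin cal2 and the zein fl2 in the ER list. Alternatives changed the filter, scaling, variance model, array weights, threshold, probe set per gene, replicate block and arrays used. Figures were drawn with matplotlib 3.10.9 in Python 3.11.15.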

Additional observations from a re-analysis of the deposited data

Results flagged for a closer look

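Both values below come from control probe sets, which were not tested between the groups; the poly-A controls served to centre the arrays in an alternative. The poly-A controls lay above the wild types in the mutants by 1.20 (median log2 difference), in 36 of 36 probe sets, which read 4 bacterial transcripts. The hybridisation controls, added after labelling, differed by 0.14. On the scale of the poly-A controls the PDI family median was -1.71, against -1.41 over all genes, and PDIL2-1 did not pass the threshold.

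Some maize control genes carry separate probe sets for their 5′ and 3′ parts. Their 5′ minus 3′ value changed by a median of -0.49 in log2, mutant minus wild type, over 7 pairs that ranged from -1.55 to 0.76. It was lower in the mutants in 5 of the 7, and its part in the differences of the PDI family was not tested.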

How the results depend on the processing

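Of the 15 kept PDI probe sets, all kept their sign under every alternative except on the poly-A scale, where PDIL2-1 was -0.14 and PDIL5-2 was -0.99. With 2199 higher and 2315 lower calls over all probe sets, the poly-A scale gave 304 and 8231, a threshold of 0.01 gave 533 and 601, and no filter gave 3438 higher. Each array left out in turn gave 0 to 599 higher and 0 to 595 lower limma calls, with 1785 to 2228 and 1848 to 2497 at an unadjusted p under 0.05; an array alone in its group is assumed to vary like the others. Falls among PDI genes, 5 in all, numbered 9 on the poly-A scale, 1 at a threshold of 0.01 and 0 to 2 with an array left out. The rise became 0 on the poly-A scale and 0 to 1 with an array left out. The 4 falls of the ER folding list became 7 on the poly-A scale and 0 to 2 with an array left out. The replicate block gave 3 falls among PDI genes. Replicate numbers do not pair the samples by the labels, and deviations of equal number correlated at 0.021, so the lost calls, of PDIL2-2 and PDIL5-3, do not measure a weaker effect. The block gave 1620 higher and 1824 lower calls over all probe sets. Causes were not tested. Fits on fewer arrays have less residual freedom, and its part in the lost calls was not tested either.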
